A study of Mus musculus with 26 samples.

Results

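Cdkn1a, Ccng1, Fas, Phlda3 and Perp are genes that the transcription factor p53 is known to switch on. They were chosen by name as p53 targets, with earlier results of these data known. The counts of their calls given below are therefore no independent test of p53 targets. Every probe set that the array annotation assigns to them was used, which gave 8 of 45101 probe sets and 5 of 18194 genes named on the arrays. Cdkn1a has 2 of these probe sets, Ccng1 has 3, and Fas, Phlda3 and Perp have 1 each. All 8 passed the filter on dim probe sets, which asked for at least 3 of 26 arrays above the median of all deposited values, an intensity of 52.6.

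RNA of mouse cells and tumours was measured on 26 single-colour oligonucleotide arrays. Osteosarcoma is a malignant tumour of bone-forming cells, and osteoblasts are their normal counterpart. There were 3 cultures of WT osteoblasts differentiated in vitro, 4 secondary tumours, 4 cell lines from osteosarcomas and 15 primary osteosarcomas. Secondary tumours 29, 64 and 94 are labelled as transplants. For secondary tumour 66 the source label names tumour tissue derived from a line, while the title names a cell line. The titles of the 4 secondary tumours carry the code OPflR, which was not interpreted here. Beyond that code the labels describe the tumours only as a mouse model. They state no genotype, strain, age or driver for them, and no treatment for any group. The state of the p53 gene in each tumour is therefore not given in the sources used here, and Trp53 itself was not analysed here. The labels do not state whether the osteoblast cultures derive from different mice, and their differences from each other could be technical alone. How far osteoblasts of different mice vary is therefore not known from these arrays. The p-values against osteoblasts come from a joint fit of all 4 groups, except where fewer arrays are named. They rest on a spread shared by the groups, to which the 15 primary tumours contribute the most arrays.

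p53 is a transcription factor that is stabilised when DNA is damaged or an oncogene is active. Its targets stop the cell cycle, repair DNA or start apoptosis, and other targets, such as Mdm2, lower p53 again. Cdkn1a encodes p21, an inhibitor of cyclin-dependent kinases that stops the cell cycle. Ccng1 encodes cyclin G1, which recruits a phosphatase to Mdm2. Fas is a death receptor, Phlda3 binds membrane lipids and inhibits Akt, and Perp is a membrane protein that takes part in apoptosis and in the desmosomes that join epithelial cells. Loss of p53 function is common in osteosarcoma.

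Because p53 acts through a DNA motif, the promoters of the genes that are compared below are shown, from 250 bases before to 50 bases after the start site that RefSeq annotates on the mouse build GRCm38.p6. Of the 5 genes, 4 had an entry, and Cdkn1a had 2 start sites. Capitals mark a match to the p53 decamer consensus, a run of 10 bases that p53 binds in pairs, or the hexamer ACATGT. Both motifs were searched on both strands, and a decamer match can contain the hexamer. The Cdkn1a promoter spans chr17:29090729-29091028 on the plus strand, the Ccng1 promoter chr11:40755237-40755536 on the minus strand, the Fas promoter chr19:34290409-34290708 on the plus strand and the Phlda3 promoter chr1:135765835-135766134 on the plus strand.
Cdkn1a: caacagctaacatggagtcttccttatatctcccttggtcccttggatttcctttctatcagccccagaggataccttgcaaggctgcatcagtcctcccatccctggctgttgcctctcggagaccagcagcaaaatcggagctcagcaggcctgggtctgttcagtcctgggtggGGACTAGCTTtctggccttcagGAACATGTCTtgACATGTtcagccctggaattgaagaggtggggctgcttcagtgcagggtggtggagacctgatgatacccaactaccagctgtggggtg
Ccng1: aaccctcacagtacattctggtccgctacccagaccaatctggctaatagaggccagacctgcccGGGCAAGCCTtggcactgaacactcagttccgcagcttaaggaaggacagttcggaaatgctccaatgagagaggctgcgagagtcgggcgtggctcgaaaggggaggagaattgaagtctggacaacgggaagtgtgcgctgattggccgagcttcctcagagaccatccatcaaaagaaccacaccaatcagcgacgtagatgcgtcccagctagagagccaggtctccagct
Fas: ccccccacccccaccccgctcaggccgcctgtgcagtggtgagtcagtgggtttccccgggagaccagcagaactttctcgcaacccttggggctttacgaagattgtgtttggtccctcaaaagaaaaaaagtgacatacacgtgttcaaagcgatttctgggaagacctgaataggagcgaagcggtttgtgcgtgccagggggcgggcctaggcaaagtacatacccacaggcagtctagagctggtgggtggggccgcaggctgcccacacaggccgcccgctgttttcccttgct
Phlda3: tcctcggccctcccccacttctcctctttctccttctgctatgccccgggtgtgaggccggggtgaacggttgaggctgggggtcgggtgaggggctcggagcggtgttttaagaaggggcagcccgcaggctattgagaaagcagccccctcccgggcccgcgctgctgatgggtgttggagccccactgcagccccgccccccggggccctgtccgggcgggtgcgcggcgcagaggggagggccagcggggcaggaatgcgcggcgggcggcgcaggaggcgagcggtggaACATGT

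In the Cdkn1a promoter GGACTAGCTT began at position -73 and GAACATGTCT at -51, counted from the start site, and a further ACATGT began at -39. These decamers form a pair with a spacer within the 13 bases allowed. The Ccng1 promoter held 1 decamer match, GGGCAAGCCT at -185. The Phlda3 window ended in ACATGT at 45, and the Fas window and the other Cdkn1a start site, chr17:29093519-29093818, held neither motif. Of all 32851 promoters in the RefSeq table, 8.36% held a decamer match, 0.0731% a pair and 5.28% the hexamer. A match is a run of letters, and binding was not measured. Of 44 promoters of the other p53 targets listed further on, 11 (25%) held a decamer match and 0 a pair.

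The arrays were not uniform. Bacterial control transcripts, which are added to the hybridisation mix and do not come from the samples, parted them into 3 sets that are called spike-control sets A, B and C here. Set C stood apart by its bioB intensity relative to bioC, 1.04 to 1.17 against at most 0.477 elsewhere. Set A had bioD 5′ signal of 0.640 to 0.671 times its 3′ signal, and set B of at most 0.448. Set A holds the 3 osteoblast cultures and nothing else, so in each comparison against osteoblasts the set and the group cannot be told apart. Set B holds 7 primary tumours and the 4 secondary tumours, and set C holds 8 primary tumours and the 4 cell lines. Gapdh, a transcript of the samples themselves, also differed in its 5′ signal relative to its 3′ signal. The ratio was 0.656 to 0.845 in set B primary tumours and 0.909 to 1.03 in those of set C, without overlap. Osteoblast cultures had 0.916 to 0.967, secondary tumours 0.839 to 1.08 and cell lines 1.04 to 1.08. Its part in the differences below was not tested. Array medians ran from 44.4 to 58.8.

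Cell type markers were read on the same arrays, and their part in the differences below was not tested. Of 8 osteoblast markers 5 were measured, and their mean log2 intensity was 10.72 to 11.03 in the osteoblast cultures, 7.47 to 12.20 in primary tumours, 9.96 to 12.08 in secondary tumours and 7.02 to 9.83 in cell lines. For fat cell markers, 7 of 8 measured, the mean reached 11.02 to 11.09 in osteoblast cultures, and the highest of the remaining arrays had 7.26. The mean of 14 macrophage markers was 5.30 to 5.52 in osteoblast cultures and 5.04 to 5.27 in cell lines, against 8.37 to 10.64 in primary and 8.42 to 10.08 in secondary tumours, with C1qa at the floor in all osteoblast cultures and Fcgr3 in all cell lines. The mean of 10 endothelial markers had a median of 7.27 and a highest value of 8.18 in primary tumours, and was 6.69 to 8.02 in secondary tumours, 5.32 to 5.46 in lines and 5.81 to 6.31 in osteoblast cultures. That of 10 skeletal muscle markers was 4.63 to 11.03 in primary tumours, 4.76 to 8.70 in lines, 4.48 to 4.94 in secondary tumours and 4.46 to 4.62 in osteoblast cultures. The mean of 8 of 10 T and NK cell markers stayed between 4.33 and 5.10 on all arrays, near the floor of 3.64 to which dim values were raised.

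Against osteoblast cultures, Fas, Ccng1 and Phlda3 were lower in primary tumours, secondary tumours and cell lines, while neither probe set of Cdkn1a passed the test in any of the 3 comparisons and Perp ran the other way in tumours without passing it. A probe set was called when its limma adjusted p, by Benjamini-Hochberg over all 27308 kept probe sets, was below 0.05 and its fold was at least 2. In primary tumours 5 of the 8 probe sets were called lower, where 11.1% of all kept probe sets were called lower and 22.2% were called in either direction. In cell lines 4 were called lower, where 5.82% of all were, and 7.35% were called in either direction. In secondary tumours 4 were called lower, where 10% of all were, and 22.9% were called in either direction. The median log2 difference of the 8 probe sets was -1.67, -1.41 and -1.53 in these comparisons, and that of all kept probe sets 0.04, -0.06 and 0.08. The 3 comparisons share the osteoblast arrays and are not independent of each other. Nor are probe sets of the same gene, and Ccng1, which has the most of them, weighs most in these counts and medians.

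**Figure D1:**
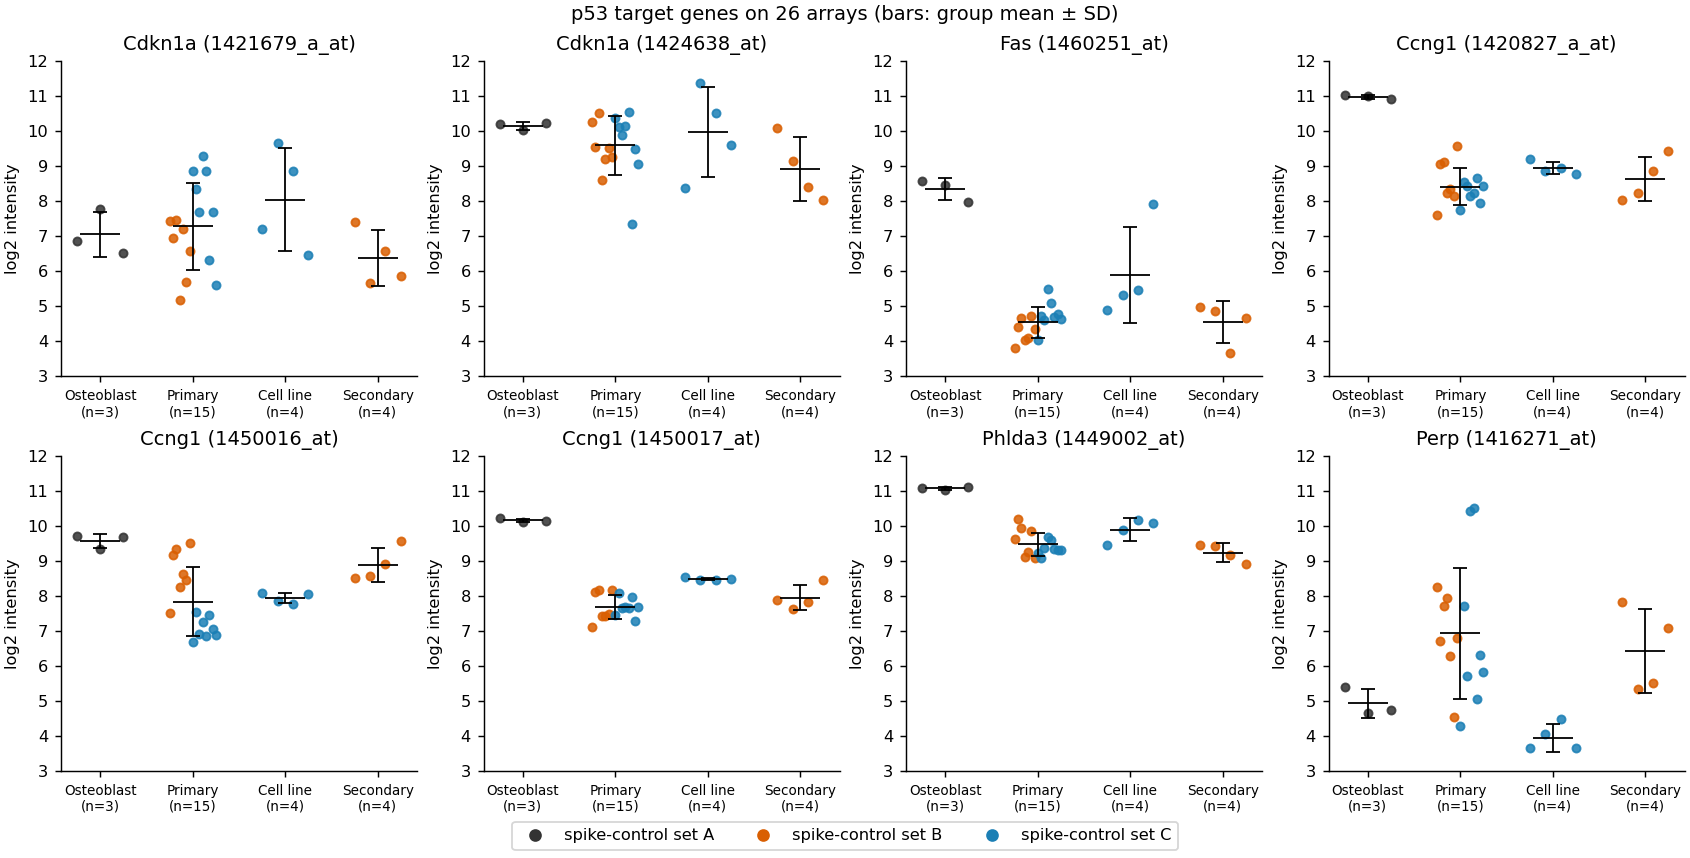
Log2 intensity of the 8 probe sets of Cdkn1a, Fas, Ccng1, Phlda3 and Perp on each of 26 arrays, by group, with points coloured by spike-control set and bars at the group mean ± SD. The 3 osteoblast cultures lie above all other arrays for Fas, Phlda3 and for Ccng1 at 1420827_a_at and 1450017_at, and not for Cdkn1a or Perp.

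Cdkn1a varied widely among tumours and lines. At probe set 1424638_at, the brighter of its probe sets, the osteoblast cultures were at intensities of 1169, 1041 and 1195. The primary tumours lay between 164 in tumour 330 and 1501 in tumour 188, with a median of 750. Secondary tumours 29, 64, 66 and 94 were at 1086, 572, 335 and 260. Cell lines 176, 179, 182 and 213 were at 330, 2634, 1472 and 784. Lines 179 and 182 and primary tumours 29, 119, 176 and 188 lay above the narrow osteoblast range, most other tumours lay below it, and all groups overlapped with the osteoblasts.

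The mean log2 intensity of Cdkn1a at 1424638_at was 10.15 ± 0.11 (SD, n = 3) in osteoblasts, 9.97 ± 1.28 (n = 4) in cell lines, 9.59 ± 0.85 (n = 15) in primary tumours and 8.91 ± 0.91 (n = 4) in secondary tumours. No neighbours in this order differed beyond their spread. The difference from osteoblasts was -0.55 (SE 0.532, limma adjusted p = 0.406) in primary tumours, -0.18 (SE 0.642, adjusted p = 0.902) in cell lines and -1.23 (SE 0.642, adjusted p = 0.129) in secondary tumours. These standard errors leave room for differences of more than 2-fold, so the data do not show that Cdkn1a was alike. The secondary tumour difference was called when only the groups compared entered the fit (adjusted p = 0.0486) and with array weights (-1.28, adjusted p = 0.0111).

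The second Cdkn1a probe set, 1421679_a_at, was dimmer. Osteoblast cultures were at 117, 218 and 91.8, cell lines 176, 179, 182 and 213 at 148, 801, 466 and 87.9, and secondary tumours 29, 64, 66 and 94 at 169, 50.4, 96.6 and 57.8. The range of the primary tumours was 36.2 to 631 with a median of 173. The groups overlapped in every comparison, as they did at the other probe set. The difference from osteoblasts was 0.22 (SE 0.705, adjusted p = 0.814) in primary tumours, 0.99 (SE 0.851, adjusted p = 0.497) in cell lines and -0.68 (SE 0.851, adjusted p = 0.551) in secondary tumours. Lines 179 and 182 were the highest of the lines, and tumours 176, 183 and 188 were above 450 among the primary tumours.

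Ccng1 was lower in every tumour and line than in any osteoblast culture at 2 of its 3 probe sets. At 1420827_a_at the osteoblast cultures were at 2071, 2040 and 1922. Cell lines 176, 179, 182 and 213 were at 586, 468, 490 and 437, and secondary tumours 29, 64, 66 and 94 at 260, 299, 465 and 689. Primary tumours ran from 195 in tumour 119 to 763 in tumour 94, with a median of 329. The highest tumour was thus well below the lowest osteoblast culture. Ccng1 at this probe set fell by 2.56 on the log2 scale in primary tumours (SE 0.296, limma adjusted p = 2.28e-07), by 2.34 in secondary tumours (SE 0.357, adjusted p = 1.96e-05) and by 2.03 in cell lines (SE 0.357, adjusted p = 0.000364), which are 5.88-, 5.06- and 4.08-fold.

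At 1450017_at the osteoblast cultures were at 1186, 1115 and 1131, and the 4 cell lines lay between 348 and 370. Primary tumours were at 139 to 290 with a median of 202, and secondary tumours from 199 to 350 with a median of 231. Here the cell lines formed a narrow band above all 15 primary tumours. Ccng1 fell by 2.47 in primary tumours (SE 0.192, adjusted p = 3.32e-10), by 2.21 in secondary tumours (SE 0.232, adjusted p = 9.91e-08) and by 1.68 in cell lines (SE 0.232, adjusted p = 1.77e-05). The bulk RNA of a tumour or culture does not tell fewer cells expressing a gene from less of its RNA per cell, here and for the genes below.

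The third Ccng1 probe set, 1450016_at, did not follow the others. Osteoblast cultures were at 838, 651 and 813, cell lines 176, 179, 182 and 213 at 269, 233, 220 and 263, and secondary tumours 29, 64, 66 and 94 at 362, 381, 482 and 752. The 7 primary tumours of spike-control set B ran from 182 to 722 with a median of 395, and the 8 of set C from 102 to 187 with a median of 126. All set B tumours but tumour 119 lay above every set C tumour. Primary tumours were called lower than osteoblasts (-1.74, SE 0.48, limma adjusted p = 0.00449), with set C tumours alone at -2.50 (adjusted p = 9.72e-08) and set B tumours alone at -0.88 (adjusted p = 0.035), which is under 2-fold. The difference was -1.64 in cell lines (SE 0.58, adjusted p = 0.064) and -0.69 in secondary tumours (SE 0.58, adjusted p = 0.36), and neither was called. The cell line difference was called without primary tumour 29 or 94 (adjusted p = 0.0463 and 0.0413), with array weights (-1.71, adjusted p = 0.00114) and with only the groups compared in the fit (adjusted p = 0.000563).

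Set B primary tumours were higher than set C primary tumours at 1450016_at by 1.61 (SE 0.23, limma adjusted p = 2.57e-05), where 3.80% of all kept probe sets were called between these tumours. It was the only one of the 8 probe sets called there. The same contrast gave 0.32 (adjusted p = 0.344) at 1420827_a_at and 0.03 (adjusted p = 0.927) at 1450017_at. The probe sets of Ccng1 therefore disagreed on the order of the tumour groups while sharing the direction against osteoblasts. The next largest difference was in Cdkn1a at 1421679_a_at, -1.19 (SE 0.537, adjusted p = 0.109), against -0.06 at its other probe set.

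**Figure D2:**
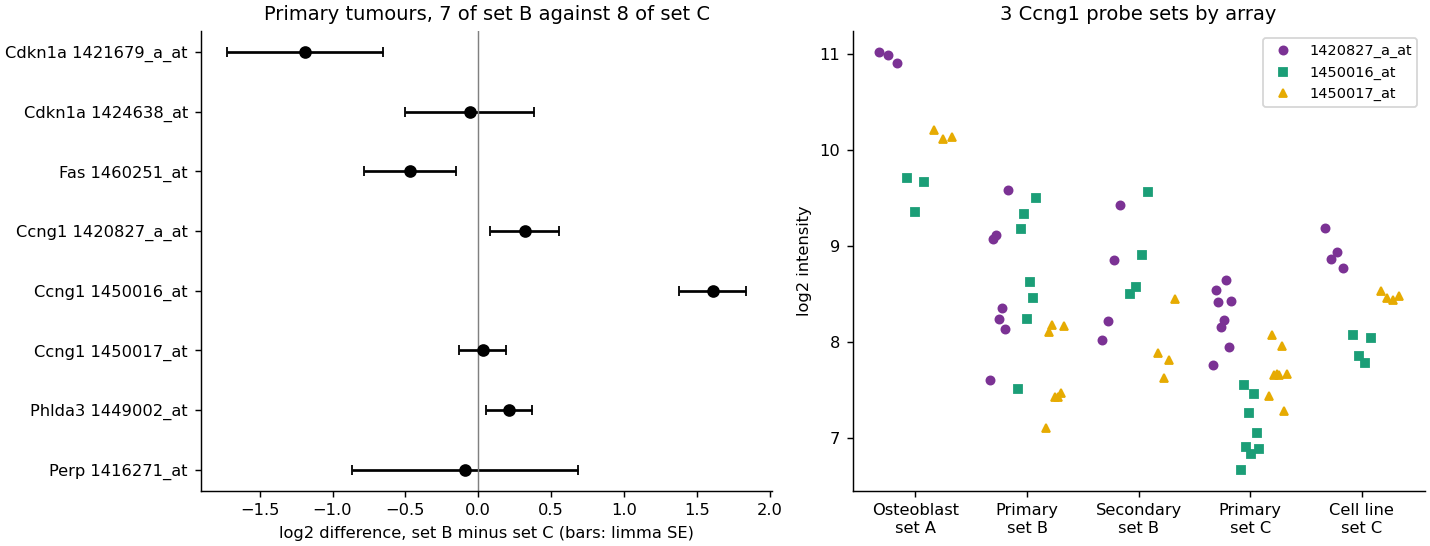
Left, log2 difference between primary tumours of spike-control set B (n = 7) and set C (n = 8) for each probe set, with limma standard errors. Right, log2 intensity of the 3 Ccng1 probe sets on each array by group and set: 1450016_at is 1.61 higher in set B primary tumours than in set C, and the other Ccng1 probe sets differ by 0.32 and 0.03.

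Fas was lower in every tumour and line than in any osteoblast culture. At its probe set 1460251_at the osteoblast cultures were at intensities of 379, 353 and 255. Primary tumours ran from 13.9 in tumour 119 to 44.9 in tumour 183, with a median of 24.7, and secondary tumours 29, 64, 66 and 94 were at 31.6, 28.8, 12.8 and 25.5. Cell lines 176, 179 and 182 were at 29.4, 39.8 and 44.1, while cell line 213 was at 243. Every tumour was below the median of all values, and cell line 213 alone came near the osteoblast range. The probe set passed the filter through the osteoblast cultures and line 213 alone, so a probe set as dim in tumours could pass only if it was higher there. Fas was chosen by name, with earlier results of these data known. Its calls against osteoblasts were also made with no filter (limma adjusted p = 2.57e-07 in primary tumours, 6.3e-06 in secondary tumours and 0.0024 in lines).

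The mean log2 intensity of Fas was 8.34 ± 0.31 (SD, n = 3) in osteoblasts, 5.89 ± 1.37 (n = 4) in cell lines, 4.54 ± 0.44 (n = 15) in primary tumours and 4.54 ± 0.59 (n = 4) in secondary tumours. It fell by 3.81 in primary tumours (SE 0.397, limma adjusted p = 4.41e-08) and by 3.80 in secondary tumours (SE 0.479, adjusted p = 1.51e-06), a fold of 14 and 13.9. In cell lines it fell by 2.45 (SE 0.479, adjusted p = 0.00109), or 5.45-fold. Over 14 settings, those that leave out single arrays aside, the primary tumour difference lay between -4.06 and -3.26. Primary and secondary tumours differed by 0.01 (SE 0.353, adjusted p = 0.996).

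Phlda3 was lower in every tumour and line than in any osteoblast culture. At 1449002_at the osteoblast cultures were at 2171, 2066 and 2206. Cell lines 176, 179, 182 and 213 were at 695, 934, 1151 and 1074, and secondary tumours 29, 64, 66 and 94 at 698, 690, 571 and 478. Primary tumours ran from 536 in tumour 179 to 1160 in tumour 12, with a median of 654. No tumour or line reached the osteoblast range, and 3 of the 4 lines were above most tumours. Phlda3 fell by 1.60 in primary tumours (SE 0.197, limma adjusted p = 5.38e-07), by 1.83 in secondary tumours (SE 0.237, adjusted p = 2.1e-06) and by 1.18 in cell lines (SE 0.237, adjusted p = 0.00136). Under quantile normalization the cell line difference was -0.92 (adjusted p = 0.00817), which is under 2-fold.

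Counted over these comparisons, the osteoblast arrays did not overlap the primary tumours, with the tumours lower, at 4 of the 8 probe sets, where this held for 15.2% of all kept probe sets. The count was 4 for secondary tumours, against 24.5% of all, and 6 for cell lines, against 24.3%. The additional probe sets in the lines were Ccng1 at 1450016_at and Perp, and neither was called. None of the 14 macrophage markers (0) was called between lines and osteoblasts, against 14 in primary and 13 in secondary tumours. The fat cell markers were lower in all tumours and lines. Whether either cell type has a part in the differences of the 8 probe sets was not tested.

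**Figure D3:**
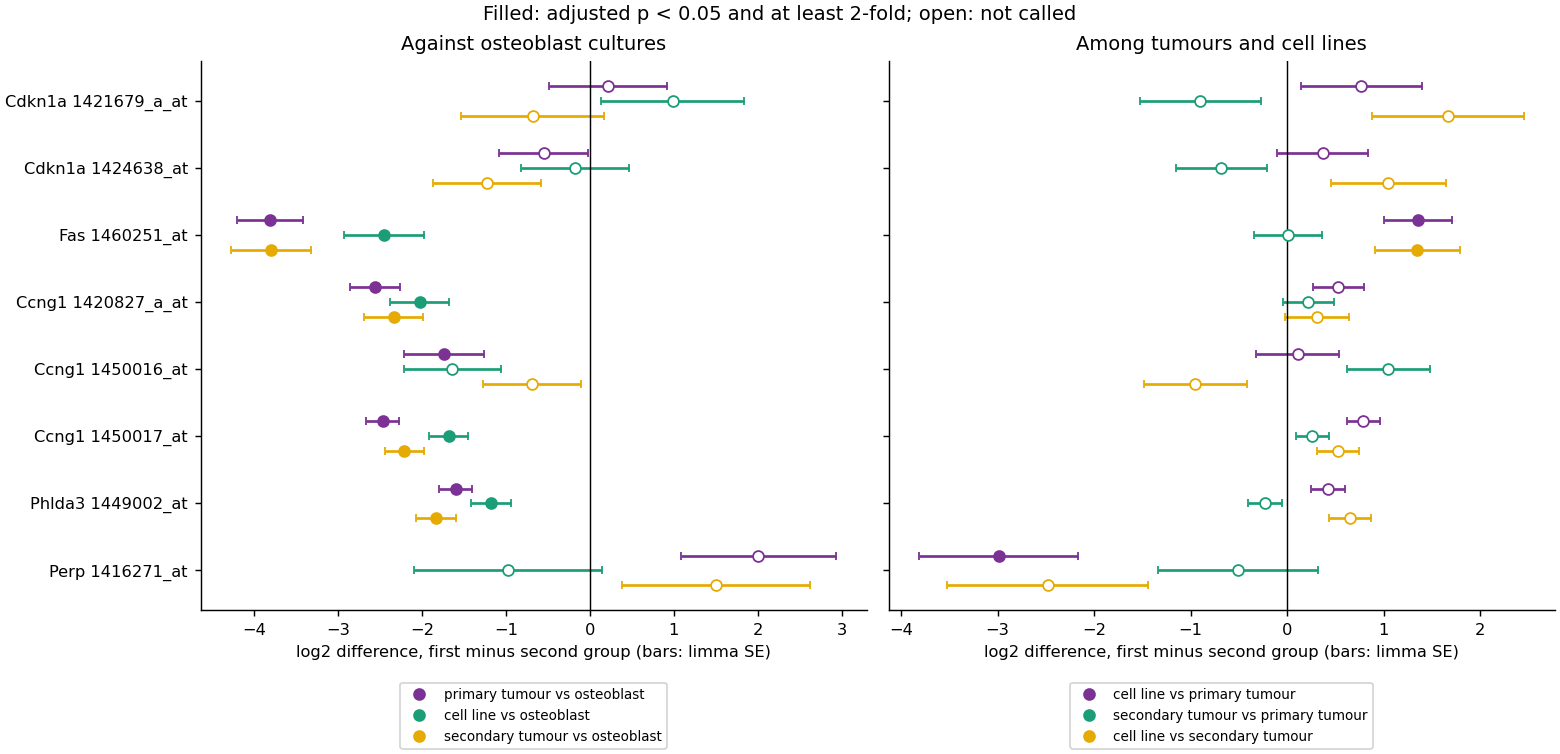
Log2 differences of the 8 probe sets in 6 comparisons, with limma standard errors; filled points passed adjusted p 0.05 and 2-fold. Fas, Phlda3 and Ccng1 at 1420827_a_at and 1450017_at are filled in all 3 comparisons against osteoblasts and Ccng1 at 1450016_at in primary tumours alone. Among tumours and lines the filled points are Fas, higher in lines, and Perp, lower in lines than in primary tumours.

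Perp differed from the other genes in its range. At 1416271_at the osteoblast cultures were at 42.1, 25.1 and 26.6, and cell lines 176, 179, 182 and 213 at 8, 16.5, 22.1 and 11.6, with lines 176 and 213 under the floor. Secondary tumours 29, 64, 66 and 94 were at 224, 40.2, 45.2 and 135. Primary tumours ran from 19.4 in tumour 176 to 1375 in tumour 183 and 1472 in tumour 188, with a median of 104, and the next highest, tumour 119, was at 304. Tumours 183 and 188 thus stood far above the rest, and the lines were the lowest group. The mean log2 intensity was 6.93 ± 1.87 (SD, n = 15) in primary tumours, 6.43 ± 1.21 (n = 4) in secondary tumours, 4.93 ± 0.41 (n = 3) in osteoblasts and 3.95 ± 0.40 (n = 4) in cell lines.

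Perp passed the filter through tumours alone, so a probe set as dim in lines and osteoblasts could pass only if it was higher in tumours. Against osteoblasts it was higher by 2.01 in primary tumours (SE 0.928, limma adjusted p = 0.078) and by 1.50 in secondary tumours (SE 1.12, adjusted p = 0.299), neither of them called. Left out singly, primary tumour 87 or 176 turned the first into a call (2.18, adjusted p = 0.0498, and 2.20, adjusted p = 0.0444), as did array weights (1.84, adjusted p = 0.00387) and the 7 set B tumours alone (1.96, adjusted p = 0.0167). Without tumours 183 and 188 the difference was 1.46 (adjusted p = 0.0757). Cell lines were lower than primary tumours, with a log2 difference of -2.99 (SE 0.826, adjusted p = 0.00556), and without those tumours the difference was -2.44 (SE 0.598, adjusted p = 0.00225). With no filter the adjusted p over all primary tumours was 0.0121, and lines 176 and 213 entered at the floor.

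Tumours 183 and 188 also carried epithelial transcripts. The mean log2 intensity of 10 epithelial and epidermal markers was 7.98 in tumour 183 and 9.12 in tumour 188, 6.72 in tumour 12, 6.34 in tumour 94 and 5.13 to 5.78 on all other arrays. Krt5 and Krt14, keratins of basal epidermis, were at intensities of 2217 to 2488 and 4941 to 5576 in tumours 183 and 188, and at most 237 and 571 in the other 13 primary tumours. Dsp, which encodes the desmosome protein desmoplakin, was at 733 to 1633 in both and at most 220 in the others. In tumours 29, 64, 119 and 179, Perp was at 208 to 304 while Krt14 was at 7.82 to 15.8, Krt5 at 19.1 to 136 and Dsp at 33.1 to 126, against 8.1 to 10.4, 20.9 to 25.1 and 10.4 to 17 in osteoblast cultures. The part of epithelial RNA in the Perp values of tumours 183 and 188 was not tested.

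**Figure D4:**
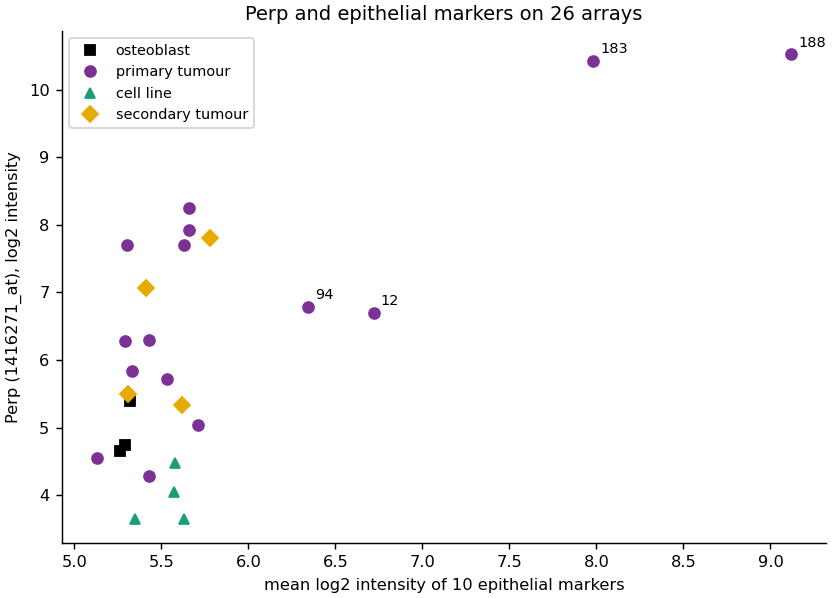
Perp log2 intensity against the mean log2 intensity of 10 epithelial markers on 26 arrays, by group, with 4 primary tumours numbered. Tumours 183 and 188 lie at 10.43 and 10.52 for Perp and at 7.98 and 9.12 for the markers, away from all other arrays, whose Perp values span the floor to 8.25.

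Between cell lines and primary tumours, Fas was called higher and Perp lower, 2 of the 8 probe sets, where 15.3% of all kept probe sets were called. Fas was higher in lines by 1.36 (SE 0.353, limma adjusted p = 0.00351), and the groups overlapped. The difference rests on cell line 213: without it Fas was 0.68 higher (adjusted p = 0.0555), and the call was lost. Against the 8 primary tumours of set C, the set of the lines, Fas was higher by 1.14 (adjusted p = 0.0414) and Perp lower, at -3.03 (adjusted p = 0.0211), and with the set as a block the values were 1.14 (adjusted p = 0.0278) and -3.03 (adjusted p = 0.0185).

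Ccng1 at 1450017_at was above all primary tumours in every line, the only probe set of the 8 whose groups did not overlap there, with the lines higher, as 3.77% of all kept probe sets were. Its difference of 0.79 (SE 0.171, limma adjusted p = 0.000708) is under 2-fold and was 0.80 against set C tumours (adjusted p = 0.000684). At 1420827_a_at the difference was 0.53 (SE 0.263, adjusted p = 0.111). At 1450016_at it was 0.11 (adjusted p = 0.86) over all primary tumours and 0.86 (adjusted p = 0.00246) against those of set C. Phlda3 was 0.42 higher in lines (SE 0.175, adjusted p = 0.0557), and 0.52 higher against set C tumours (adjusted p = 0.0121). Cdkn1a differed by 0.37 (SE 0.473, adjusted p = 0.551) at 1424638_at and by 0.77 (SE 0.627, adjusted p = 0.338) at 1421679_a_at, where it was called against set B tumours alone (1.40, adjusted p = 0.0482).

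Between secondary and primary tumours none of the 8 probe sets was called by limma. Over all kept probe sets 2 were called (0.00732%), and 2706 had an unadjusted p under 0.05. With the tumour number as a block, which pairs each secondary tumour with its own primary, 7 were called (0.0256%), and still none of the 8. The largest difference among the 8 was in Ccng1 at 1450016_at, 1.05 (SE 0.427, adjusted p = 0.439), and it was 0.19 (adjusted p = 0.919) against the set B primary tumours, the set of the secondary tumours, and 1.81 (adjusted p = 2.72e-05) against those of set C.

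Between cell lines and secondary tumours, which lie in different spike-control sets, Fas alone was called, 1.35 higher in lines (SE 0.444, limma adjusted p = 0.0205), where 17.6% of all kept probe sets were called. Without cell line 213 it was 0.67 (adjusted p = 0.121), without secondary tumour 66 it was 1.06 (adjusted p = 0.0855), and with the set as a block 0.88 (adjusted p = 0.317). The other differences were -2.48 for Perp (SE 1.04, adjusted p = 0.0646), 1.67 (SE 0.788, adjusted p = 0.1) and 1.05 (SE 0.595, adjusted p = 0.169) for Cdkn1a at 1421679_a_at and 1424638_at, and 0.65 for Phlda3 (SE 0.22, adjusted p = 0.0233), which is under 2-fold. The groups did not overlap, with the lines lower, for Perp and for Ccng1 at 1450016_at, 2 of the 8 probe sets, as for 24.8% of all. Leaving out single arrays moved some of these across the threshold. Perp was called without primary tumour 183 or 188 (adjusted p = 0.0384 and 0.0374), Cdkn1a at 1424638_at without cell line 176 (1.59, adjusted p = 0.0407) and at 1421679_a_at without cell line 213 (2.20, adjusted p = 0.0457).

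Some numbers occur in more than one group, and the same-numbered arrays were set side by side. Fas was higher in cell lines 176, 179 and 182 than in the primary tumour of the same number, by 0.85, 0.59 and 0.85. Ccng1 was higher in 3 of 3 at each probe set, by 0.32 to 1.44 at 1420827_a_at, and so was Phlda3, by 0.21 to 0.80. Perp was lower in 3 of 3, with differences of -3.66 to -0.64. Cdkn1a went both ways: at 1424638_at line 176 was at 330 and primary tumour 176 at 1334, while line 179 was at 2634 and primary tumour 179 at 1105. The 3 pairs were not tested on their own. In deviations from the group mean, each line correlated less with the primary tumour of its number than with another set C primary tumour. The values were 0.053, 0.03 and 0, with 0.111, 0.064 and 0.049 for the best other tumour.

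The 4 secondary tumours showed no common direction against their own primary tumours. Fas was higher in 3 of 4, with differences of -0.41 to 0.82, and Cdkn1a at 1424638_at lower in 3 of 4, from -1.23 to 0.55. Phlda3 was lower in 3 of 4, from -0.50 to 0.32, and Ccng1 at 1420827_a_at lower in 3 of 4, from -1.10 to 0.50. Perp was at 244 in primary tumour 64 and 40.2 in its secondary tumour, and at 208 and 224 in number 29. A test of whether lines and secondary tumours differ in their change from the same-numbered primary passed for none of the 8 probe sets, the smallest limma adjusted p being 0.113 for Phlda3 (difference of changes 0.72, SE 0.263). The test paired each line by number alone, though the line correlated less with that primary tumour than with another. With so few pairs it cannot show that the changes were alike.

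**Figure D5:**
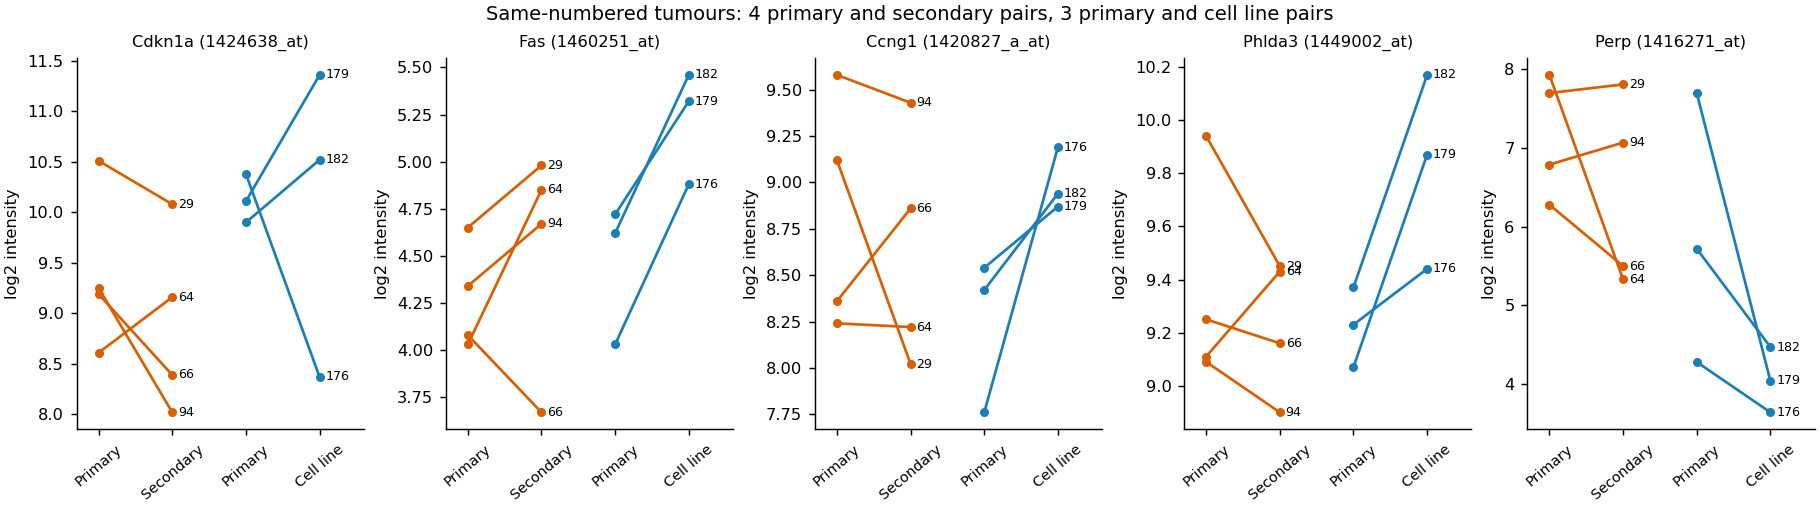
Log2 intensity of 1 probe set of each gene in same-numbered tumours, with a line joining each primary tumour to its secondary tumour (4 pairs, left in each panel) or to the cell line of that number (3 pairs, right). For Fas, Ccng1 and Phlda3 all 3 cell line pairs go up and for Perp all 3 go down, and the secondary tumour pairs go both ways for all 5 genes.

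Covariation of the 5 genes was tested among the 15 primary tumours. Over the 10 pairs of genes and all 15 tumours, none reached an adjusted p under 0.05 in a permutation test (100000 resamples, two-sided), and none an unadjusted p under 0.05. The strongest pair was Cdkn1a and Perp, with Pearson's r of 0.42 (permutation p = 0.121, adjusted p = 0.636) and Spearman's rho of 0.39 (permutation p = 0.153), and r was 0.15 without the 2 tumours farthest from the median of Cdkn1a. Fas and Perp had r of 0.41 (permutation p = 0.127) and rho of 0.17 (permutation p = 0.548), and r was 0.36 without the 2 tumours farthest from the median of Fas. Within set C, Fas and Perp had r of 0.88 (n = 8, exact permutation p = 0.00166, adjusted p = 0.0166), and 0.71 without tumours 183 and 188 (n = 6, exact permutation p = 0.0722). Within set B r was -0.61 (n = 7, exact permutation p = 0.143), so the relation did not hold in both sets. Fas and Phlda3 had r of 0.25 over all 15 tumours (permutation p = 0.371), 0.52 in set B (n = 7, exact permutation p = 0.22) and 0.74 in set C (n = 8, exact permutation p = 0.0384, not adjusted).

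The probe sets of other genes nearest to each gene over the 26 arrays were found by the root mean squared difference of mean-centred log2 values. For Phlda3, whose own SD over arrays was 0.62, these were Scp2 (0.26), a sterol carrier protein, Uqcrc2 (0.27), a subunit of respiratory complex III, and Hint3 (0.27). For Ccng1 they were Phyhipl (0.41), Pank3 (0.43), a pantothenate kinase, and Acvr1c (0.44), a receptor of the TGF-beta family, against an SD of 0.93. For Fas they were Cyp7b1 at both of its probe sets (0.44 and 0.46), an oxysterol hydroxylase, and Agtr2 (0.45), an angiotensin receptor, against an SD of 1.41. For Perp, with an SD of 1.87, they were Dsp at both of its probe sets (0.98 and 0.99) and Lama3 (1.15), a laminin chain of epithelial basement membranes. For Cdkn1a no probe set came close: Rbfox1, Lix1 and Hagh lay at 0.61 to 0.67 against an SD of 0.91.

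A list of 36 other p53 targets set these genes in their pathway, of which 33 were named on the arrays and 29 kept. Each gene was taken at its brightest kept probe set. Against osteoblasts, 4 of the 29 fell and 0 rose in primary tumours, where 11.9% of 12887 genes fell and 6.63% rose. In cell lines 5 fell and 1 rose, where 6.47% of genes fell and 1.54% rose, and in secondary tumours 2 fell and 1 rose, where 10.9% fell and 7.85% rose. The median log2 difference of the 29 was -0.44, -0.29 and -0.44, beside -0.07, -0.10 and -0.02 over all genes. In each comparison most of the 29 were not called by limma, as was so for most of all genes.

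Ak1, adenylate kinase 1, fell in all 3 comparisons, by 1.49 in primary tumours (limma adjusted p = 3.03e-07), 1.81 in cell lines (adjusted p = 1.35e-06) and 1.59 in secondary tumours (adjusted p = 3.1e-06). Steap3, a ferrireductase, also fell in all 3, with differences of -2.87 (adjusted p = 1.51e-06), -1.85 (adjusted p = 0.00774) and -2.10 (adjusted p = 0.00081). In primary tumours Pml, the organiser of PML nuclear bodies, fell by 1.13 (adjusted p = 0.00391) and the DNA polymerase Polk by 1.08 (adjusted p = 0.00188); Polk dropped under 2-fold at the other scalings, to -0.98 and -0.89, and to -0.96 with set C tumours alone.

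In cell lines Sesn1, an inhibitor of mTORC1, fell by 1.87 (limma adjusted p = 0.000792), Zmat3, an RNA-binding protein, by 1.76 (adjusted p = 0.00112), and Trp53inp1, a stress protein, by 2.33 (adjusted p = 0.0366). The Trp53inp1 call was lost when any 1 of the osteoblast cultures, or cell line 179, 182 or 213, was left out, with values of -2.42 to -2.14. Cd82, a tetraspanin, rose in lines by 1.28 (adjusted p = 0.0114), and was 1.21 higher (adjusted p = 0.0535) without osteoblast culture 3. Epha2, an ephrin receptor, rose in secondary tumours by 1.51 (adjusted p = 0.0466), a call lost in 22 of 37 alternatives, 18 of which leave out 1 array. Mdm2, the ubiquitin ligase of p53, did not reach 2-fold: it differed by -0.60 in primary tumours (adjusted p = 0.00371), -0.75 in cell lines (adjusted p = 0.0116) and -0.61 in secondary tumours (adjusted p = 0.0159), and its osteoblast and tumour values did not overlap.

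Of 12 regulators and relatives of p53, 11 were measured. Cdkn2a, whose products restrain Rb kinases and Mdm2, rose from 6.87 to 9.17 in primary tumours (difference 2.29, SE 0.425, limma adjusted p = 0.00011), by 3.20 in cell lines (SE 0.514, adjusted p = 0.000124) and by 2.93 in secondary tumours (SE 0.514, adjusted p = 9.38e-05). Trp53bp1, a DNA repair protein that binds p53, rose by 2.04 in primary and 2.15 in secondary tumours (adjusted p = 4.58e-06 and 4.46e-05) and was lower in lines than in both kinds of tumour, at -1.04 and -1.15 (adjusted p = 0.00249 and 0.00854). The former was under 2-fold without cell line 179 or primary tumour 179 or 353, at -0.95, -0.98 and -0.99, and with set B tumours alone (-0.78). Scaling to the 75th percentile gave -0.97 and -0.99, and moving secondary tumour 66 to the lines -0.75 and -0.76, so that both calls were lost. Hipk2, a kinase that phosphorylates p53, fell by 1.36, 1.87 and 1.68 in primary tumours, lines and secondary tumours (adjusted p = 0.000498, 0.000713 and 0.000566). Atm, the DNA damage kinase, fell by 1.06 in lines (adjusted p = 4.46e-05), and was under 2-fold at both other scalings, -0.81 and -0.88, and without osteoblast culture 3 or cell line 182, -0.98 and -0.96.

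In Fas signalling 4 of 7 listed genes were kept. Cflar, the inhibitor of the Fas caspase complex, fell by 1.12 in primary tumours (limma adjusted p = 0.00328) and by 1.48 in lines (adjusted p = 0.00699), and under quantile normalization the primary tumour value was -0.89, and with set B tumours alone -0.86. Bid, which carries the death signal to mitochondria, rose by 1.18 in lines (adjusted p = 0.0149), and the call was lost without osteoblast culture 3 (1.04) or cell line 176 (0.86). Of 6 close relatives that were kept, the p21 relative Cdkn1c fell by 4.36 in primary tumours and by 6.44 in secondary tumours (adjusted p = 0.00355 and 0.000857), where 3 of 4 arrays were at the floor. The Perp relative Pmp22 fell by 1.93 and 2.09 in the same comparisons (adjusted p = 4.6e-05 and 0.00024). Pmp22 was higher in lines than in primary and secondary tumours, by 1.30 and 1.47 (adjusted p = 0.00109 and 0.00379). Both Pmp22 calls were lost with secondary tumour 66 among the lines (0.90 and 0.88), and the second with the spike-control set as a block (1.21). Cdkn1c was higher in lines than in secondary tumours by 3.36 (adjusted p = 0.0464), a call lost in 20 of 38 alternatives, 14 of which leave out 1 array.

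Between cell lines and primary tumours 3 of the 29 other targets rose and 2 fell, where 4.77% of genes rose and 7.08% fell; they were named after their values were seen. Gadd45a, a growth arrest gene, was 1.82 higher in lines (SE 0.432, limma adjusted p = 0.00165), Plk2, a kinase, 1.22 higher (adjusted p = 0.000121) and Steap3 1.02 higher (adjusted p = 0.0173), a call lost without cell line 182 or 213 or primary tumour 94, 119, 176 or 188, with values of 0.68 to 0.99. Trp53inp1 fell by 2.23 (adjusted p = 0.00204) and Epha2 by 1.32 (adjusted p = 0.0193), the latter lost without cell line 179, 182 or 213 (-0.97, -1.28 and -1.25) and at -0.90 against set C tumours. Against secondary tumours Gadd45a and Tigar, a regulator of glycolysis, were higher in lines by 2.14 and 1.22, and Trp53inp1, Epha2 and Sesn1 differed by -2.34, -1.67 and -1.11 (adjusted p at most 0.0217), where 4.83% of genes rose and 8.55% fell. With the spike-control set as a block, the Tigar, Trp53inp1, Epha2 and Sesn1 calls were lost, at 0.72, -0.79, -0.78 and -0.43. These calls were also lost with secondary tumour 66 among the lines, at 0.97, -1.91, -1.33 and -1.04. The Epha2 call was lost without cell line 179 or 213 as well (-1.32 and -1.60). Sesn1 lost its call without secondary tumour 64 (-0.88), and was under 2-fold at both other scalings (-0.95 at each). Between secondary and primary tumours 0 of the 29 were called by limma.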

How the data were processed

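RNA from 26 mouse samples was labelled as biotinylated cRNA and hybridised to single-colour arrays, per the labels' protocols. The deposited values are linear intensities per probe set, 1 column per array; the sources used here name neither the software nor the normalization by which the authors made these intensity values. They ran from 0.497 to 21734. Of 45101 probe sets, 34958 carry 1 gene symbol, 932 several and 9211 none, and 34754 symbols were updated by gene ID. Values were raised to a floor of 12.5 (the 20th percentile of all values, log2 3.64), and log2 was taken. Probe sets with at least 3 arrays above the overall median, 52.6, were kept (27308, of 12887 genes). One limma fit (version 3.58.1, R 4.3.3) on 4 groups gave all 6 comparisons, with no covariate and with Benjamini-Hochberg adjustment over all kept probe sets. The fits were tested on simulated data. Depth does not apply to arrays, and their number limits the precision.

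All probe sets of the 5 genes were described in every group. Of the other p53 targets, those called against osteoblasts were named, and of the regulators, Fas signalling and relatives, those called in any comparison and Mdm2. Members and lists were chosen with earlier results of these data known. Blocking on the spike-control set, the contrast of set B with set C, and leaving out primary tumours 183 and 188 were chosen after seeing the data. Tumour numbers come from the labels. Deviations from the group mean correlated at 0.289 to 0.685 between each secondary tumour and its own primary tumour and at most at 0.105 with any other, so these numbers pair the samples. Alternatives covered the floor, scaling, filter, probe sets per gene, array weights, arrays in the fit, the group of secondary tumour 66, pairing, spike-control set and leaving out each array. Some listed genes are not reported here.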

Additional observations from a re-analysis of the deposited data

Results flagged for a closer look

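Among 58 groups of 4 arrays of the genes named in the text, 2 held an array whose gap to the nearest other array exceeded Dixon's 95% critical value as a share of the group's range, and chance gives about 1 in 20 groups. Bid at 1417045_at was at a log2 intensity of 9.27 in cell line 176, against 7.90, 7.96 and 8.11 in the other lines. Cdkn1c at 1417649_at was at 4.37 in secondary tumour 64, while the other secondary tumours were at the floor of 3.64. With the others tied at the floor, any value above it would be flagged. This flag was thus fixed by the floor, and the rate of 1 in 20 does not hold for such ties.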

How the results depend on the processing

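Of 114 results recomputed, 0 changed the direction of a called value. The calls of Fas and of Ccng1 at 1420827_a_at and 1450017_at against osteoblasts held under all alternatives in which they were tested; the cause of the changes below was not tested unless fewer probe sets or arrays entered. In the order primary tumours, lines and secondary tumours against osteoblasts, lines against primary, secondary against primary and lines against secondary tumours, 6053, 2008, 6241, 4180, 2 and 4806 probe sets were called. A filter at the 75th percentile gave 3543, 1328, 3609, 2417, 1 and 2689, and 1 probe set per gene 2378, 1059, 2381, 1514, 1 and 1697, with 3 of the members' probe sets in the first. With secondary tumour 66 among the lines the last 3 counts were 2575, 1 and 2282, with 1 member probe set in lines against primary and 0 in lines against secondary tumours. A floor at the 40th percentile gave 1 and 0 member probe sets there, and 1 probe set in secondary against primary tumours. Lines against secondary tumours had 2 member probe sets with no floor, 4 with array weights, and 0, of 2060 in all, with the spike-control set as a block. Secondary against primary tumours gave 4 with only these groups fitted, 5 with the set as a block, 12 within set B and 746, 1 a member, with set C.

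With the tumour number as a replicate block, secondary against primary tumours gave 7. Lines and primary tumours share only a number (correlations of 0.053, 0.03 and 0, with 0.111, 0.064 and 0.049 for the best other tumour), and with that replicate block no member probe set (0) was called, Fas being at 0.76, Perp at -1.85 and Gadd45a at 1.34.

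Cdkn1a at 1424638_at was called in secondary tumours against osteoblasts with array weights (-1.28) or those groups alone (-1.23), and in lines against secondary tumours with array weights (1.47). Fas lost its call in lines against primary tumours at the higher floor (0.85) and with tumour 66 moved (0.91), and against secondary tumours with these (0.88 and 0.62), the groups alone (1.35) and the set block (0.88). Phlda3 in lines was at -0.92 after quantile normalization. Perp was called in primary tumours with array weights (1.84) and in set B (1.96), and in lines against secondary tumours with no floor (-2.66), array weights (-2.30) and the groups alone (-2.48). Fas and Perp correlated at 0.88 in set C.

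Leaving out each array gave 1280 to 2080 probe sets in lines against osteoblasts (1280 without osteoblast culture 1, 1335 without culture 2), 2 to 4 in secondary against primary tumours (4 without cell line 176 or secondary tumour 66), and 1 to 2 and 0 to 2 member probe sets in lines against primary and secondary tumours. In lines against secondary tumours Cdkn1a ran from 0.59 to 1.59 at 1424638_at and from 1.14 to 2.20 at 1421679_a_at. Fas ran from 0.68 to 1.70 against primary and 0.67 to 1.69 against secondary tumours, and Perp from 1.75 to 2.24 in primary tumours against osteoblasts and from -2.85 to -2.02 in lines against secondary tumours. Among other genes 106 alternatives lost a call and 8 gained one. Scaling to the 75th percentile moved the median of all probe sets from 0.04 to 0.14 in primary tumours, from -0.06 to 0.11 in lines against osteoblasts, and from -0.16 to -0.00 in lines against secondary tumours. Calls in lines against osteoblasts split into 420 higher and 1588 lower, and into 761 and 1173 with that scaling or 484 and 1070 by quantiles. Against primary tumours they split into 1234 and 2946, by quantiles 1616 and 2323, and against secondary tumours into 1275 and 3531, by quantiles 1839 and 2500, with that scaling 1836 and 2730. On each array 18.6 to 23.3% of values were at the floor, where no order can be read.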
